A study of Mus musculus with 4 samples.

Results

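The interferon regulatory factors (IRFs) form a family of transcription factors, and its members Irf1, Irf2, Irf3, Irf4, Irf5, Irf7, Irf8 and Irf9 were followed in lung MDSCs of mice with a premetastatic niche (PMN). The members were picked by gene symbol as a family, with earlier results of these data known, as were the gene lists set beside them, and make up 8 of the 54532 genes in the deposited count table. All 8 passed the filter on low counts, which 16369 genes passed. The cells were CD11b+Ly6g+ cells sorted from the lungs of C57BL/6 mice aged 6 to 8 weeks. Every mouse, controls included, received MCM, medium conditioned by melanoma cells, at 300 μL intraperitoneally for 10 days, and 100000 B16F10 mouse melanoma cells by the tail vein on day 7. The control group (Ctrl) was given no peptide. The other groups received TP5, sFD17 or FR17 under the skin at 40 μM/kg each day from day 3, and lungs were taken on day 10. TP5 is thymopentin, an immunomodulatory peptide. FR17 carries TP5 on a branched peptide that assembles in tissue after cleavage by MMP2, and sFD17 carries the TP5 residues in scrambled order, so that it assembles without the activity of TP5. A single mRNA library was made per group from the pooled cells of 10 to 12 mice, so no difference below has a replicate check, and each p-value compares 2 libraries and not 2 conditions.

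IRFs bind DNA through a conserved N-terminal domain that recognises GAAA repeats, as found in the interferon-stimulated response element (ISRE). Sensors of nucleic acids and Toll-like receptors activate IRF3, IRF5 and IRF7, which switch on interferon and cytokine genes. Secreted interferon then acts through its receptors, JAK kinases and STAT proteins. IRF9 is the DNA-binding subunit of the complex ISGF3, which binds the ISRE of interferon-stimulated genes, and Irf7 is itself a target of ISGF3. IRF1 is an activator induced by interferon-γ, and IRF2 competes with it at many of the same sites. IRF4 and IRF8 act mainly in blood cell lineages with partners such as PU.1, and IRF8 favours monocytes and dendritic cells over neutrophils.

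The start-site windows of Irf1, Irf2, Irf7 and Irf8 are shown because those of Irf1, Irf2 and Irf8 hold matches to the motifs of the pathway and that of Irf7, the member with the largest change, holds none. Each window runs from 250 bases before to 50 bases after a start site, 5′ to 3′ on the strand of the gene, from RefSeq on GRCm38.p6. Matches are in capitals and all other bases in lower case.
Irf1: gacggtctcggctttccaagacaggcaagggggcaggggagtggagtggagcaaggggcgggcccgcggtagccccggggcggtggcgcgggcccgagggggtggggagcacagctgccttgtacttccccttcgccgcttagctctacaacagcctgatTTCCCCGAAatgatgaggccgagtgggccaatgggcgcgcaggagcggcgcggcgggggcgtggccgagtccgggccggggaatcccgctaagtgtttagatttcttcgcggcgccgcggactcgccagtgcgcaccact
Irf2: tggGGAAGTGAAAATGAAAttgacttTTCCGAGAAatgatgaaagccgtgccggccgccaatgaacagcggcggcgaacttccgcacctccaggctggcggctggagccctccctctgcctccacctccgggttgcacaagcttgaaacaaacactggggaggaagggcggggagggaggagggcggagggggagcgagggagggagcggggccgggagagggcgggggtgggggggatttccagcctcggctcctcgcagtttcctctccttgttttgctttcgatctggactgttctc
Irf7: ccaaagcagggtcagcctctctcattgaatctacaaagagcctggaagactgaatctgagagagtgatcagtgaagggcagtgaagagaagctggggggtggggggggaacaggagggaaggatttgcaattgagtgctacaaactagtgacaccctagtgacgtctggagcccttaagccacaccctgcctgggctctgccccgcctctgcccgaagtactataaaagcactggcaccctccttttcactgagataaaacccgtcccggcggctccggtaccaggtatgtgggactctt
Irf8: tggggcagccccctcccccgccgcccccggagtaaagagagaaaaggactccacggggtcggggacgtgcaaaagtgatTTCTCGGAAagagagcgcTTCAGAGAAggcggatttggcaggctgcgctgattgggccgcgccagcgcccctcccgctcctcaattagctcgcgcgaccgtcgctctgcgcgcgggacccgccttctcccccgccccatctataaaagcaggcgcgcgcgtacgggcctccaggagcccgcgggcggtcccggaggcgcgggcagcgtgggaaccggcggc
These windows lie at chr11:53769764-53770063 on the plus strand, chr8:46739495-46739794 on the plus strand, chr7:141266375-141266674 on the minus strand and chr8:120736108-120736407 on the plus strand. All 8 members matched the RefSeq table, with 11 windows in all. On both strands, the ISRE core was searched as GAAA, any 2 bases and GAAA, and the STAT-binding element GAS as TTCNNNGAA. The κB site was searched as GGGA, any 2 bases and TTCC, and the composite element of Ets factors and IRFs as GGAA, any 2 bases and GAAA. Among all 32851 windows of 300 bases, 3.44% held the ISRE core, 8.3% the GAS element, 1.47% the κB site and 2.72% the composite. The Irf2 window held an ISRE core, a composite match that overlaps it, and a GAS element. The first window of Irf1 held 1 GAS element and the first window of Irf8 held 2. The windows of Irf3, Irf4, Irf5, Irf7 and Irf9 held no match, which says only that these letters are not in these windows. No member window matched the κB letters, and looser forms of the κB site were not searched, so such forms may stand in lower case above.

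The libraries held from 15543071 to 19638228 counts, and the members had from 412 to 9579 counts in a library, so that counting error was small, while the spread between mice is unknown. The sort markers were present in every library, with Itgam (CD11b) between 353 and 378 CPM and Ly6g between 72 and 106 CPM. Relative to control, the 18 neutrophil markers summed to 1.08-fold for TP5, 1.3-fold for sFD17 and 0.88-fold for FR17, whereas the 16 macrophage markers summed to 0.804-fold, 0.366-fold and 1.29-fold. In mRNA of sorted cells, fewer cells of a type and less RNA per cell cannot be told apart. Levels below are given as RPKM on TMM-scaled library sizes and may be compared between genes. Differences are log2 fold changes with the 95% interval of counting error alone.

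**Figure D1:**
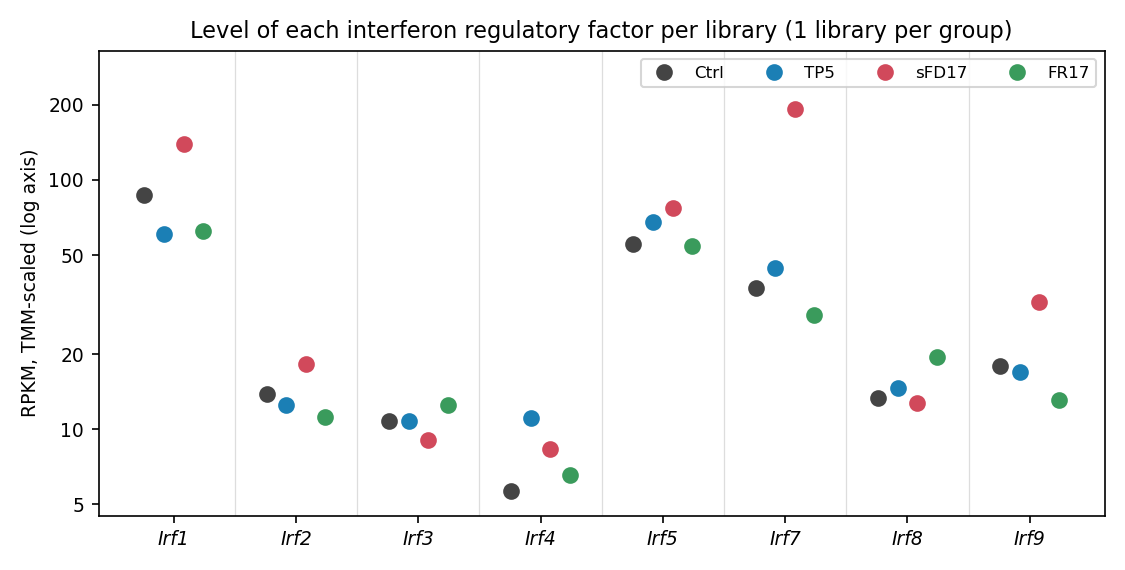
Level of each of the 8 members in each library, as TMM-scaled RPKM on a log axis, with 1 point per library and no error bar because each group has 1 library. The sFD17 point for Irf7, at 192 RPKM, stands far above the other Irf7 points at 28.7 to 44.4 RPKM.

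In the control library Irf1 had the highest level, at 87.4 RPKM, followed by Irf5 at 55.5 and Irf7 at 36.8 RPKM. The other members lay between 5.66 RPKM for Irf4 and 17.9 RPKM for Irf9. Irf2 and Irf8 were not separated by counting error in that library, with a log2 ratio of 0.05 (95% interval -0.05 to 0.15). Under TP5 the order at the top was Irf5, Irf1 and Irf7, at 68, 60.7 and 44.4 RPKM. In the sFD17 library it was Irf7, Irf1 and Irf5, at 192, 140 and 76.9 RPKM. Under FR17 it was Irf1, Irf5 and Irf7, at 62.7, 54.3 and 28.7 RPKM, and Irf8 came next at 19.5 RPKM. Lower in the order, Irf4 and Irf3 under TP5, Irf3 and Irf4 under sFD17 and Irf9 and Irf3 under FR17 were not separated by counting error. The order at the top rests on the length used for each gene. The length in the file counts every exon base of every transcript, which for Irf7 is the whole gene of 3776 bases, since some of its transcripts keep introns. Per base of the longest transcript, Irf1 led in all 4 libraries, and in sFD17 it stood at 260 RPKM against 224 RPKM for Irf7. On that length Irf8 also passed Irf7 in FR17, at 39.7 against 33.4 RPKM.

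**Figure D2:**
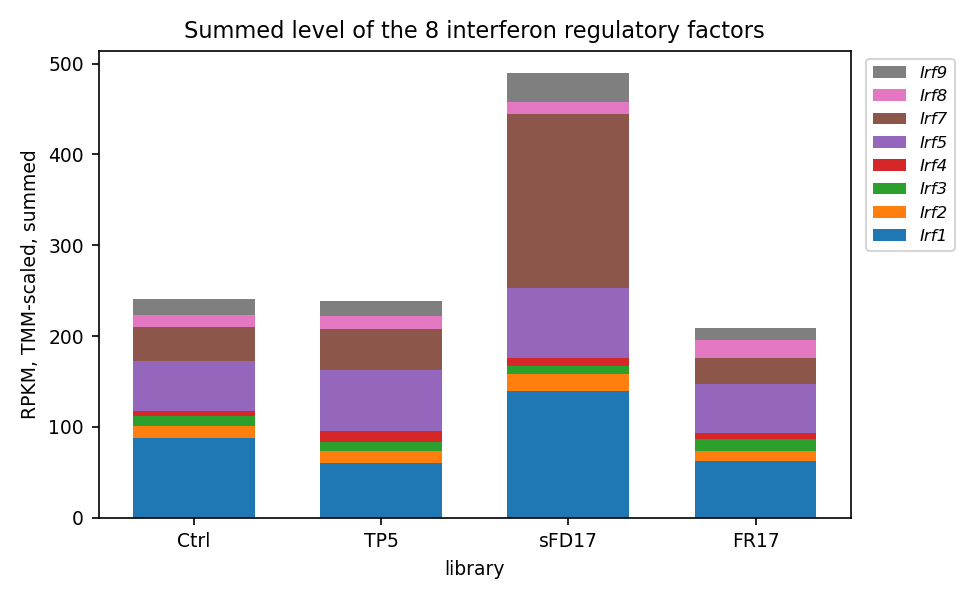
Sum of the TMM-scaled RPKM of the 8 members in each library, from 0, with each member as a coloured block. The sFD17 bar reaches 490 RPKM and the other 3 lie between 209 and 241 RPKM, with Irf7 as the tallest block of sFD17.

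Summed over the family, the level in Ctrl, TP5, sFD17 and FR17 was 241, 239, 490 and 209 RPKM. The sFD17 sum was 2.03-fold that of the control, and 1.46-fold when Irf7 was left out. The TP5 and FR17 sums were 0.992-fold and 0.865-fold that of the control. These small differences turn with the scaling, since the summed CPM of the family, not scaled by TMM or length, was 991 in the control, 1007 for TP5 and 1031 for FR17.

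Irf7, the interferon-inducible member that amplifies interferon production, had the largest difference of the family. Its level in Ctrl, TP5, sFD17 and FR17 was 36.8, 44.4, 192 and 28.7 RPKM, from 2346, 2939, 9579 and 2488 counts. Only the sFD17 library was high. The log2 fold change of sFD17 against control was 2.38 (interval 2.32 to 2.45), a 5.22-fold higher level, with p = 1.32e-05 in edgeR's exact test and a Benjamini-Hochberg adjusted p of 0.00305 over all genes. It ranked 55 among the 16369 genes ordered from the largest rise, and 3 among the 929 tested genes with a transcription factor family. Irf7 was the 1 member of 8 called in this comparison at an unadjusted p under 0.05, beside 4.83% of all genes tested. Plasmacytoid dendritic cells are known for high Irf7, and their 10 markers summed to 1.1-fold the control in sFD17, with 6 of 10 higher, a median difference of 0.16 and none at 0. The list includes Bst2 (0.60), itself induced by interferon, and the 1 marker called was Siglech, which fell from 167 to 55 counts (-1.22, p = 0.0352 in edgeR's exact test). They took 0.0247% of the counts against 0.026% in the control. The 18 neutrophil markers were higher in 17 of 18 cases, and the part of either cell type in the Irf7 level was not tested. The differences of TP5 and FR17 from control were 0.27 and -0.36, with p = 0.605 and p = 0.494 in edgeR's exact test. The call depends on the spread assumed for a single library, since DESeq2's Wald test, with a coefficient of variation of 0.875 for Irf7, gave p = 0.174 where edgeR's exact test used 0.253. DESeq2 took its value from the 4 libraries as 1 group, so that the sFD17 level of Irf7 itself is counted as spread. A missing Wald call therefore cannot decide whether the sFD17 difference would repeat.

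Irf3, which is made constantly and activated by phosphorylation, had 10.8, 10.8, 9.07 and 12.5 RPKM in the same order of libraries. Its differences from control were 0.01, -0.25 and 0.21, and none was called. The ratio of Irf7 to Irf3, a pair chosen after the values were seen, was 3.42, 4.1, 21.2 and 2.3 per length. Irf5, which acts downstream of Toll-like receptors in myeloid cells, had 55.5, 68, 76.9 and 54.3 RPKM in the same order of libraries. Its differences from control were 0.29, 0.47 and -0.03, with no call, and the last was 0.22 when libraries were scaled by size alone.

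Irf9, the DNA-binding subunit of ISGF3, had 17.9 RPKM without peptide, 17 with TP5, 32.4 with sFD17 and 13.1 with FR17. As for Irf7, the sFD17 library was the highest and the FR17 library the lowest. The difference of sFD17 from control was 0.86 (interval 0.77 to 0.95) and missed the threshold at p = 0.08 in edgeR's exact test. Those of TP5 and FR17 were -0.07 and -0.44, and neither was called. Irf9 shares 123 exon bases with Rnf31 on the same strand, and reads there cannot be assigned to one of them by position. Rnf31, a ubiquitin ligase subunit, had differences of -0.24, 0.79 and -0.44 from control in TP5, sFD17 and FR17, close to those of Irf9, and what the shared bases add was not tested.

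Irf1, the activator, had 87.4 RPKM without peptide, 60.7 with TP5, 140 with sFD17 and 62.7 with FR17. TP5 and FR17 lay below the control and sFD17 above it. The differences were -0.53 (interval -0.59 to -0.47) for TP5, 0.68 (0.63 to 0.73) for sFD17 and -0.48 (-0.53 to -0.43) for FR17, all beyond counting error and none called. Before TMM scaling Irf1 had 343 CPM in the control and 291 CPM in FR17, against 348 and 249 CPM after it. Irf2, the competitor of Irf1, had 13.8, 12.5, 18.2 and 11.2 RPKM, again with sFD17 above the control and TP5 and FR17 below it, and with smaller differences of -0.14, 0.40 and -0.29. On plain library sizes Irf2 had 101 CPM (95.8 to 105) in the control and 97.2 CPM (92.9 to 102) in FR17, so that these counting intervals overlapped. The count ratio of Irf1 to Irf2 was 3.41 (3.23 to 3.6) without peptide, 2.6 (2.46 to 2.76) with TP5, 4.13 (3.92 to 4.35) with sFD17 and 3 (2.84 to 3.16) with FR17. No 2 of these intervals overlapped, but they cover counting error alone and not the spread between mice. The ratio does not depend on how the libraries were scaled.

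Irf4, which acts in plasma cells, dendritic cells and alternatively activated macrophages, was the member with the lowest level in the control. It had 5.66 RPKM without peptide, 11.1 with TP5, 8.35 with sFD17 and 6.57 with FR17, so that TP5 was the highest. The log2 fold change of TP5 against control was 0.97 (interval 0.81 to 1.13), with p = 0.0341 in edgeR's exact test and an adjusted p of 1, so the call fails the correction over all genes. It was the 1 member of 8 called for TP5, beside 1.98% of all genes. DESeq2's Wald test (p = 0.0764), and edgeR's exact test with a fixed coefficient of variation of 0.4 (p = 0.253), ended this call. The 14 B and plasma cell markers summed to 1.42-fold the control in TP5, with 10 of 14 higher and none at 0, and their share of the counts was 0.0253% in TP5 against 0.0172% in the control. Of the plasma cell genes in that list, Jchain (-0.83), Derl3 (-0.31) and Tnfrsf17 (-1.71) were lower in TP5, and Mzb1 (0.59) and Sdc1 (0.45) were higher. In FR17, where Irf4 differed from control by 0.21, the 14 markers summed to 1.33-fold. Of the 12 markers of conventional dendritic cells 11 were higher in TP5, 4 were called higher and none was at 0, with a median difference of 0.88. Their sum stood at 1.23-fold, of which Cd24a (0.07, from 9076 to 9893 counts) made up the larger part. The macrophage markers were lower in 14 of 16 cases, with 2 called and a median of -0.65. The part of these cell types in the Irf4 level was not tested.

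Irf8, which directs monocyte and dendritic cell development, had 13.3 RPKM without peptide, 14.7 with TP5, 12.8 with sFD17 and 19.5 with FR17. FR17 was the highest, with a difference of 0.55 (interval 0.46 to 0.64) from control that was not called (p = 0.261 in edgeR's exact test). The differences of TP5 and sFD17 were 0.14 (0.04 to 0.24) and -0.06 (-0.17 to 0.05). Macrophage markers, which summed to 1.29-fold the control in FR17 with 13 of 16 higher, stood beside it, whereas the 12 monocyte markers summed to 1.07-fold, and none of either list was at 0. Chil3 (0.54) is in both lists. In FR17 it made up 90730 of the 191564 macrophage marker counts and of the 204109 monocyte marker counts. Markers of other cell types stood as high or higher in FR17, with NK cell markers at 2.73-fold and T cell markers at 1.77-fold, 12 of 12 higher in each and B and plasma cell markers at 1.33-fold with 13 of 14 higher. Of the 12 conventional dendritic cell markers 10 were higher and 1 was called, with a median difference of 0.49, while their sum of 0.979-fold was set mostly by Cd24a (-0.48, from 9076 to 8850 counts). In sFD17 the macrophage markers summed to 0.366-fold with 0 of 16 higher. Their part in the Irf8 level was not tested. The count ratio of Irf8 to Irf4 was 3.39 (3.05 to 3.76) without peptide, 1.91 (1.76 to 2.07) with TP5, 2.21 (2 to 2.45) with sFD17 and 4.27 (3.94 to 4.63) with FR17. The TP5 and FR17 libraries lay on opposite sides of the control in this ratio, with intervals of counting error alone that did not overlap that of the control. None of the 8 members was called for FR17 against control, beside 1.88% of all genes.

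**Figure D3:**
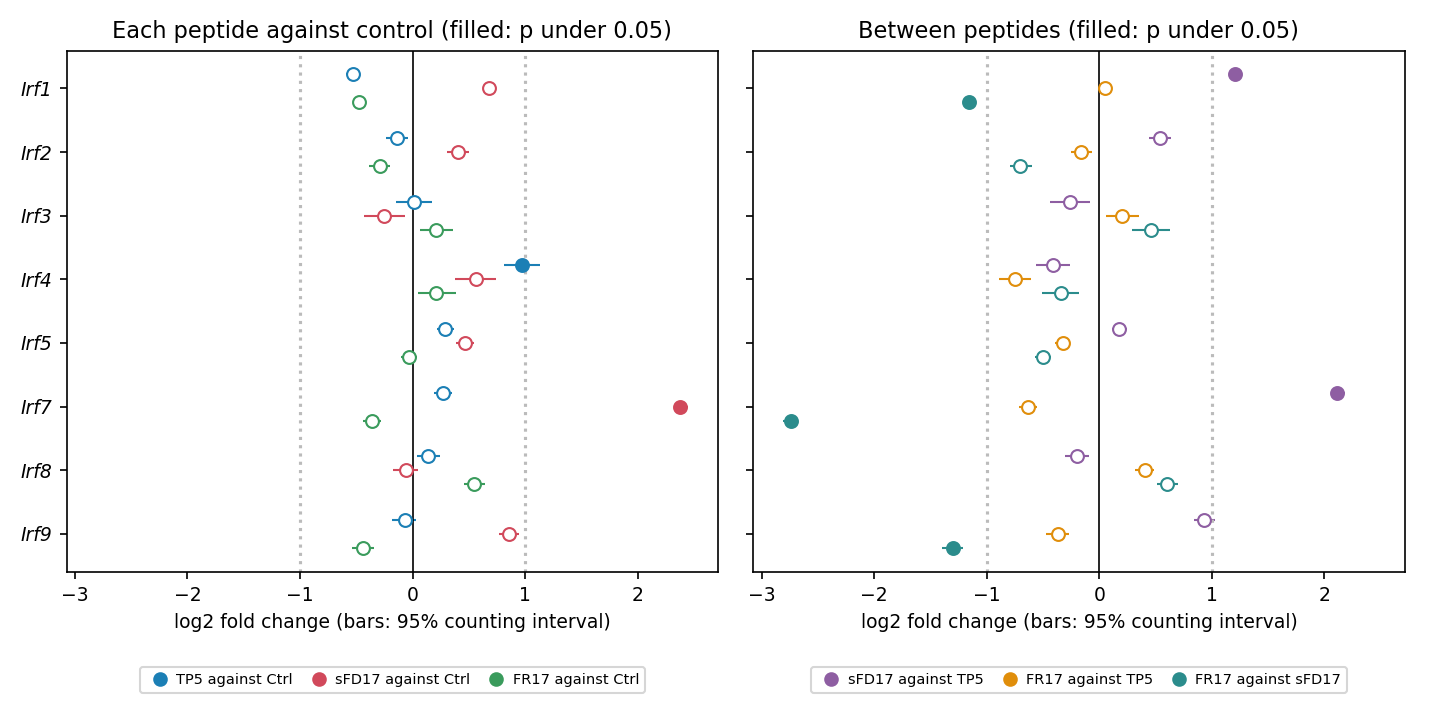
Log2 fold change of each member for each peptide against control (left) and between peptides (right), with bars for the 95% counting interval, filled points for p under 0.05 in edgeR's exact test and dotted lines at a 2-fold change. Irf7 lies at 2.38 for sFD17 against control and at -2.74 for FR17 against sFD17, past all other members.

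The peptides were given at the same dose and times, and the 3 pairs were compared in the same way. FR17 and sFD17, which differ in the order of the TP5 residues, differed most. Irf7 was lower in FR17 by a log2 fold change of -2.74 (interval -2.81 to -2.68), with p = 7.79e-07 in edgeR's exact test and an adjusted p of 0.000174, the lowest value among the 929 transcription factor genes, whereas DESeq2's Wald test did not call it (p = 0.118 against 7.79e-07 in edgeR's exact test). Irf9 (-1.30, p = 0.00849, adjusted p = 0.171) and Irf1 (-1.16, p = 0.029, adjusted p = 0.309) were also called lower in edgeR's exact test, without passing the correction. Thus 3 of 8 members were called, beside 12.7% of all genes in this comparison, all 3 of them lower. In the same comparison 11 of 16 macrophage, 7 of 12 NK cell and 6 of 12 T cell markers were called higher and none lower, while 17 of 18 neutrophil markers were lower with 3 called, and their part in the members' differences was not tested. Scaling by library size alone ended the calls of Irf1 and Irf9 and added a call of Irf8, higher in FR17 by 1.07 (p = 0.0255 in edgeR's exact test). The other 5 members ranged from -0.70 for Irf2 to 0.60 for Irf8, and the interval excluded 0 for each.

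Against TP5, sFD17 had higher Irf7 (2.11, interval 2.06 to 2.18, p = 9.60e-05, adjusted p = 0.0237) and higher Irf1 (1.21, interval 1.15 to 1.26, p = 0.0233, adjusted p = 0.85) in edgeR's exact test. These were 2 of 8 members, beside 4.64% of all genes, and DESeq2's Wald test called neither. Irf9 differed by 0.93 (0.84 to 1.03) and was not called. Between FR17 and TP5, which share the TP5 sequence and differ in the carrier peptide, 0 of 8 members passed an unadjusted p under 0.05 in edgeR's exact test or in DESeq2's Wald test, beside 3.67% of all genes in edgeR's. The differences of FR17 from TP5 ranged from -0.75 (-0.89 to -0.61) for Irf4 to 0.41 (0.32 to 0.49) for Irf8. For Irf7 the difference was -0.63 (-0.71 to -0.55), and for Irf1 it was 0.05 (-0.01 to 0.10), the 1 interval of the 8 that includes 0. Past a 2-fold change with no test lay 0 of 8 members in TP5 against control beside 8.18% of all genes, 1 in sFD17 beside 11.8% and 0 in FR17 beside 7.5%. Between peptides it was 2 of 8 in sFD17 against TP5 beside 12.4%, 0 in FR17 against TP5 beside 9.92%, and 3 in FR17 against sFD17 beside 22.1%. Since the comparisons share libraries, the values of one are not independent of those of another.

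**Figure D4:**
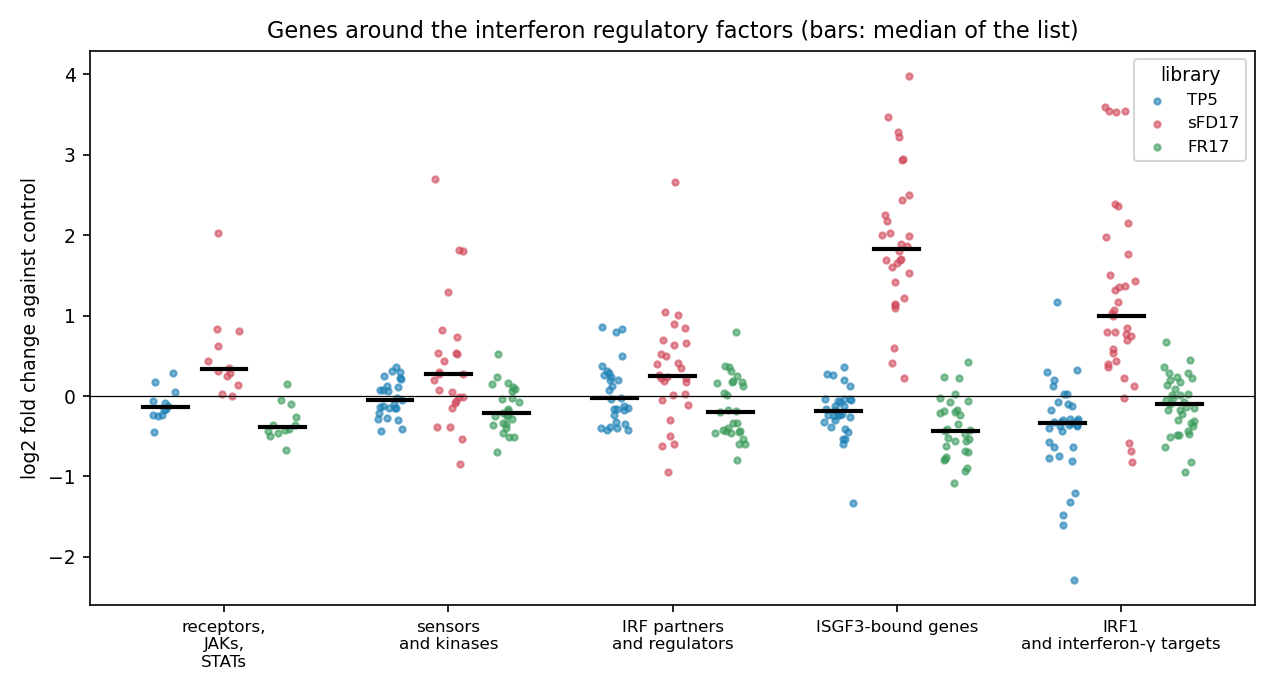
Log2 fold change against control of each tested gene of 5 lists around the IRFs, with 1 point per gene and peptide, coloured by library, and a black bar at the median of the list. For sFD17 the bars lie at 1.83 for ISGF3-bound genes and 0.99 for IRF1 and interferon-γ targets, and between 0.25 and 0.33 for the other lists.

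The genes around the IRFs were followed from upstream to downstream. Of 21 interferon genes, only Ifnb1 and Ifng had enough counts to be tested. Ifnb1, the interferon-β gene that IRF3 activates, had 47 counts without peptide, 18 with TP5, 19 with sFD17 and 76 with FR17. Ifng, the interferon-γ gene, had 15, 17, 23 and 56 counts. Neither was called against control in any library. NK and T cells are known to make interferon-γ. Of the 12 NK and 12 T cell markers 7 and 3 were called higher in FR17 than in control, beside 0.837% of all genes. They stood at 2.73-fold and 1.77-fold in sum with none at 0, and their part in the Ifng counts was not tested. Ifnb1 was higher in FR17 than in TP5 by 1.59 (p = 0.0344 in edgeR's exact test), beside 2.95% of all genes called higher there. This comparison was chosen after its values were seen, and only 15 of all genes tested passed the correction in it.

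Among 25 tested sensors and kinases upstream of IRF3, IRF5 and IRF7, 4 were called higher in sFD17 than in control and none lower, beside 1.94% of all genes called higher, with a median of 0.27 beside -0.03 over all genes. With libraries scaled by size alone that median was 0.05 beside -0.23 over all genes. The genes called were Ikbke, a kinase that phosphorylates IRF3 and IRF7 (2.70, from 446 to 2274 counts), and Ifih1, an RNA sensor (1.81, from 854 to 2345 counts). The other two, named after their values were seen, were the related RNA helicases Ddx58 (1.29) and Dhx58 (1.80), and all 4 are known to be induced by interferon. DESeq2's Wald test called 0 of the 25 in sFD17, where edgeR's called 4 at an unadjusted p under 0.05. None was called for TP5 or FR17, where the medians were -0.05 and -0.21, the latter 0.04 with libraries scaled by size alone. Of 12 interferon receptors, JAKs and STATs, Stat2, the partner of IRF9 in ISGF3, was called higher in sFD17 (2.03, from 976 to 3112 counts, p = 5.15e-05 in edgeR's exact test), a call that DESeq2's Wald test did not make. Of the other 11, none was called, and Ifnlr1 came next at 0.83. The median over all 12 was 0.33, or 0.11 with libraries scaled by size alone. None was called for TP5 or FR17, with medians of -0.14 and -0.39. With libraries scaled by size alone the FR17 median was -0.14 beside 0.26 over all genes. Of 28 partners and regulators of IRFs, 2 were called in sFD17, both higher, namely Usp18, an inhibitor of interferon receptor signaling (2.66, from 169 to 841 counts), and Cebpe (0.90), a factor of granulocyte maturation named after its values were seen. These 2 of 28 stand beside 4.83% of all genes. Cebpe passed at p = 0.0495 in edgeR's exact test, and a fixed coefficient of variation of 0.4, a dispersion from the pair of libraries and the correction over all genes each left 1 call. Library size alone, or no filter on low counts, gave 1 call higher and 1 lower, and DESeq2's Wald test gave 0. The median of this list was 0.25, or 0.03 with libraries scaled by size alone, and none was called for TP5 or FR17.

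Of the 30 genes known to be bound by ISGF3, 26 were called higher in sFD17 and none lower, beside 1.94% of all genes called higher, with a median of 1.83 beside -0.03 over all genes. In the same library 10 of 16 macrophage markers were called lower and none higher, beside 2.89% of all genes called lower, at 0.366-fold in sum. Of 11 tested epithelial markers 3 were called higher and none lower, and all 12 summed to 2.01-fold, of which Scgb1a1 made up 16131 of 17658 counts. Their part in these changes and in those of the next list was not tested. The largest changes were those of Ifit2 (3.98, from 260 to 3217 counts) and Ifit3 (3.47, from 603 to 5243 counts), which encode interferon-induced antiviral proteins. The 4 not called were Mx2, Bst2, Ifi44 and Trim25, at 1.13, 0.60, 0.23 and 0.41. None was called for TP5, with a median of -0.19. In FR17, 1 was called lower, beside 1.04% of all genes, namely Oasl2 (-1.08, from 4300 to 2768 counts, p = 0.0429 in edgeR's exact test), and the median was -0.43. That call was lost with library size alone, with a fixed coefficient of variation of 0.4, in DESeq2's Wald test and after the correction over all genes. The FR17 median was -0.19 beside 0.26 over all genes with library size alone. Between the assembling peptides, 25 of the 30 were called lower in FR17 than in sFD17, beside 7.01% of all genes. The macrophage, NK cell and T cell markers had medians of 1.82, 1.62 and 1.13 in that comparison, and their part was not tested. DESeq2's Wald test called 1 of the 30 in sFD17 against control, and a fixed coefficient of variation of 0.4 called 18.

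Of 35 tested targets of IRF1 and interferon-γ, 17 were called higher in sFD17 and none lower, beside 1.94% of all genes called higher, with a median of 0.99. The guanylate-binding proteins Gbp2 (3.59, from 1654 to 15599 counts) and Gbp5 (3.54, from 304 to 2774 counts) led them. TP5 went the other way, with 5 called lower beside 1.21% of all genes, none higher, and a median of -0.34. Iigp1, an interferon-inducible GTPase, fell from 191 to 39 counts (-2.29, p = 0.000191) and Gbp6 from 57 to 18 counts (-1.61, p = 0.0342) in edgeR's exact test. The other three, named after their values were seen, were Gbp4 (-1.48), the chemokine gene Cxcl9 (-1.20) and Serping1 (-1.32). In the same library the 10 fibroblast markers summed to 0.556-fold the control, with 10 of 10 lower and 2 called, the 10 endothelial markers to 0.702-fold, with 9 of 10 lower and 3 called, and the 16 macrophage markers to 0.804-fold, with 14 of 16 lower and 2 called. The 12 NK cell markers summed to 0.744-fold, with 10 of 12 lower and 0 called. None of these markers was at 0, and their part in the 5 genes was not tested. The same 5 genes, and no others of the list, were called higher in FR17 than in TP5, beside 2.95% of all genes, a comparison that shares the TP5 library. There 7 of 10 endothelial, 3 of 10 fibroblast, 9 of 12 NK cell and 4 of 16 macrophage markers were also called higher and none lower, with medians of 1.43, 0.85, 2.00 and 0.78, and their part was not tested. None was called for FR17 against control, where the median was -0.10, or 0.15 with libraries scaled by size alone. DESeq2's Wald test, against 17 and 5 by edgeR's at an unadjusted p under 0.05, called 0 of the 35 in sFD17 and 1 in TP5 against control. For TP5 a fixed coefficient of variation of 0.4 left 1 of the 5 calls, library size alone left 3, and the correction over all genes left 0. The lists hold genes that several IRFs and STATs bind, and a count over a list does not say which factor acted.

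The 3 genes whose log2 fold changes against control lay nearest to those of Irf7, by Euclidean distance over the 3 comparisons, were sought among 9799 genes with at least 50 counts in every library. The comparisons share the control library. These genes were Ly6i (0.08, 2.45 and -0.28 in TP5, sFD17 and FR17), Parp14 (0.03, 2.47 and -0.28) and Helz2 (0.44, 2.48 and -0.55), at distances of 0.21, 0.27 and 0.27.

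The genes beside the members on the chromosome were read in the same libraries. Irf7, on chromosome 7 from 141262706 to 141266481 on the minus strand of GRCm38, shares 45 exon bases with Phrf1 on the opposite strand, and Phrf1 had differences of 0.21, 0.39 and -0.01 from control. Deaf1, the nearest tested protein-coding gene on the other side at 30699 bases, had 0.22, 0.22 and 0.23. None of the tested protein-coding neighbours of any member was called against control. Whether reads were counted by strand is not given in the sources used here, and so reads of Irf1, Irf3, Irf5 and Irf7 in bases shared with opposite-strand genes cannot be told apart from reads of those genes. The shared stretch was longest for Irf5, with 411 of its 2905 exon bases also in Tnpo3, whose differences were 0.21, 0.14 and 0.14.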

How the data were processed

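Lung CD11b+Ly6g+ MDSCs of 4 groups were sequenced, with 1 mRNA library per group. The authors deposited read counts for each gene, not normalized, beside gene coordinates, lengths and transcription factor families. TRIzol was used for RNA, and the NEBNext Ultra Directional kit for the libraries. The submitters' processing notes name HISAT2 2.0.5, StringTie 1.3.3b, featureCounts 1.5.0-p3, edgeR 3.18.1 and GRCm38.p6. Columns were matched to samples by group name, and 0 were left unmapped.

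Counts were analysed with R 4.3.3, edgeR 4.0.16, DESeq2 1.42.0, Python 3.11.15, pandas 2.3.3, numpy 2.4.6, SciPy 1.17.1 and matplotlib 3.10.9. A gene was tested where any library reached 10 counts, which 16369 did, and libraries were scaled by TMM, with factors from 0.8491 (sFD17) to 1.169 (FR17). Libraries were compared by edgeR's exact test, two-sided, with the trended dispersion over the 4 libraries as 1 group (coefficient of variation from 0.2116 to 0.4488). This spread contains the differences between treatments. DESeq2's Wald test took the dispersion of each gene from the 4 libraries as 1 group. There a gene that is high in 1 library has its own difference counted as spread, which makes a call less likely. Genes were called at an unadjusted p under 0.05. Log2 fold changes used a prior count of 2. Intervals are exact conditional binomial at 95% and cover counting error only. RPKM was computed with the gene lengths in the file, and exons were taken from GENCODE M21. The quasi-likelihood test needs replicates and was not used, and a difference with 1 library per group measures only these libraries. The procedure was tested on simulated data.

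The members and the gene lists were chosen with earlier results of these data known. Genes named beside the members were the 2 with the largest change per list and peptide where either library reached 50 counts, the 3 nearest in pattern to a member past a 2-fold change against control, the neighbours of members, the sort markers, and others said to be named after their values were seen. Alternatives changed the scaling, filter, dispersion, threshold, prior count, test and gene length. Protein sequences were not analysed here, and some items are not reported here.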

Additional observations from a re-analysis of the deposited data

How the results depend on the processing

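No paired analysis was possible because each group has 1 library. Leaving out a replicate was likewise not possible. In the order TP5, sFD17 and FR17 against control, then sFD17 against TP5, FR17 against TP5 and FR17 against sFD17, the genes called were 324, 791, 307, 760, 600 and 2074. They were 151, 388, 154, 309, 273 and 829 with a fixed coefficient of variation of 0.4, and 2246, 3806, 3203, 4205, 3512 and 6918 with 0.1. DESeq2's Wald test called 63, 192, 40, 139, 121 and 1138, a Benjamini-Hochberg adjusted p under 0.05 called 5, 160, 0, 84, 15 and 370, and a 2-fold change without a test 1339, 1930, 1227, 2026, 1624 and 3613. A dispersion from the pair of libraries called 857 in TP5 and 820 in FR17 against control, and 816 between FR17 and sFD17. Of the 8 members, 1, 1, 0, 2, 0 and 3 were called in the same order. With 0.4 they were 0, 1, 0, 1, 0 and 1, with 0.1 they were 2, 5, 3, 4, 2 and 7, with the Wald test 0, 0, 0, 0, 0 and 1, and after adjustment 0, 1, 0, 1, 0 and 1. A 2-fold change with no test left 0 for TP5 against control. The dispersion from the pair gave 2 for TP5 against control, 1 for FR17 against TP5 and 1 for FR17 against sFD17. The 1 member that the Wald test called was Irf9 between FR17 and sFD17 (-1.35), where Irf7 was not called at -2.79.

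Library size alone moved the median of all genes from -0.03 to -0.23 in sFD17 and from 0.02 to 0.26 in FR17 against control, and from 0.07 to 0.52 between them. With it, 4 member differences changed sign, namely Irf5 in FR17 against control (0.22) and sFD17 against TP5 (-0.09), Irf2 in FR17 against TP5 (0.04) and Irf4 in FR17 against sFD17 (0.12), and the median over the members in FR17 against control went from -0.16 to 0.08. On plain library sizes the CPM in control and FR17 was 137 and 127 for Irf7 and 94.8 and 82.7 for Irf9. With TMM it was 139 and 108 for Irf7 and 96.2 and 70.7 for Irf9. Without a filter on low counts Irf5 in FR17 against control was 0.05. None of these differences was called by edgeR's exact test with TMM. DESeq2's size factors, a prior count of 0.5 and at least 10 counts in every library changed no member's direction or call. With the longest transcript as length, the share of Irf1 in the family was 42.9%, 31.4%, 36.5% and 35.6% in Ctrl, TP5, sFD17 and FR17, against 36.3%, 25.4%, 28.6% and 30% with the length in the file. With 1 library per group, depth is not the limit for the members, and the spread between mice is unknown.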
